A study of Mus musculus with 4 samples.

Results

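Growth factors and TNF family ligands that mast cells can secrete or carry on their surface were examined in activated mast cells with and without Pac1, a nuclear phosphatase that inactivates MAP kinases and is encoded by Dusp2. The 10 genes named for this group were Areg, Hbegf, Vegfa, Csf1, Lif, Osm, Tnfsf9, Tnfsf11, Lta and Ltb, and their probe sets were taken by their single gene symbol in the platform annotation. That rule found 15 of the 22626 probe sets that are not array controls, for 8 of the 10 genes, and it found none for Areg or Osm, which were therefore not analysed here. More than 1 probe set was found for 5 genes: Csf1 had 4, and Hbegf, Vegfa, Lif and Tnfsf11 had 2 each.

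The first group comprised 2 cultures of Pac1-/- bone marrow-derived mast cells and the second 2 cultures of wild-type (Pac1+/+) cells, with 1 Affymetrix mouse 430A array per culture. In both groups marrow came from mice aged 8 to 12 weeks and was cultured in interleukin-3 at 5 ng/ml over 4 to 6 weeks, which drives marrow progenitors towards mast cells. Both groups were loaded for 18 h with 100 ng/ml of IgE against dinitrophenyl and then exposed for 2 h to 20 ng/ml of the antigen DNP-HSA, which crosslinks the IgE receptor, so every value is one of stimulated cells. The cultures are numbered replicate 1 and 2 in each genotype and are independent per the series' design text. The array number limits the precision, and with 2 arrays per genotype an exact permutation test cannot give a p below 0.3333. The strain, the sex of the mice and how the deletion was made were not stated in the labels.

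Mast cells are known as a source of cytokines and growth factors that are newly transcribed after IgE receptor crosslinking, through MAP kinases, NF-kappaB and NFAT. The EGF family members amphiregulin (Areg) and heparin-binding EGF-like growth factor (Hbegf) are made as membrane precursors, are cut loose by ADAM proteases and act on ErbB receptors. Vegfa acts on endothelial receptors, Csf1 sustains macrophages through Csf1r, and Lif and oncostatin M (Osm) signal through receptors that share gp130. The TNF superfamily members Tnfsf9 (4-1BB ligand), Tnfsf11 (RANKL), Lta (lymphotoxin alpha) and Ltb (lymphotoxin beta) are ligands best known from lymphocytes and antigen-presenting cells.

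For Csf1, Lif and Vegfa, the 3 genes with a probe set at or above an intensity of 100 on all 4 arrays, the 250 bases before the annotated start are shown from RefSeq (build GRCm38.p6) as the stretch in which inducible factors commonly bind. Windows for 7 of the 10 genes were in the table used. Csf1 is on the minus strand at chr3:107760470-107760719, Lif on the plus strand at chr11:4257318-4257567 and Vegfa on the minus strand at chr17:46032378-46032627. Capitals mark matches on either strand to AP-1 (TGANTCA), CRE (TGACGTCA), NF-kappaB (GGNNNTTCC), NFAT (GGAAAA), STAT (TTCNNNGAA), Sp1 (GGGCGG) and HIF (ACGTGC) motifs, read 5′ to 3′ along the gene.
Csf1: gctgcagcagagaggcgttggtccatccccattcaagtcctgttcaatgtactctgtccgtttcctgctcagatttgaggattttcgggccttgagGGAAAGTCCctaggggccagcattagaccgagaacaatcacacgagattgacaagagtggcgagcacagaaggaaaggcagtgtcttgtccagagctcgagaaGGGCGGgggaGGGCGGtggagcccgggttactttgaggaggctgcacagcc
Lif: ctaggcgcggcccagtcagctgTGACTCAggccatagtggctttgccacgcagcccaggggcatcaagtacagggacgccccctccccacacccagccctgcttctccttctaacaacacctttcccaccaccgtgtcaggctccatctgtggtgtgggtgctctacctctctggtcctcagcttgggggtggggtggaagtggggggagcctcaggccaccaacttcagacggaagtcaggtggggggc
Vegfa: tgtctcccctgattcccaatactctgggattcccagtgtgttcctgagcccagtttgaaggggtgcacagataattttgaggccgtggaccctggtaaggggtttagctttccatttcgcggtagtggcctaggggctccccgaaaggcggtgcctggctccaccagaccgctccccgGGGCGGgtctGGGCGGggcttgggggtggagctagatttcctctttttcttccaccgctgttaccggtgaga
The Csf1 window held 1 NF-kappaB match, on the opposite strand, and 2 Sp1 matches; Lif held 1 AP-1 match and Vegfa 2 Sp1 matches. None of these matches overlapped another. Of 32851 promoter windows of the same length, 15.7% held the NF-kappaB letters, 6.75% the AP-1 letters and 32.7% the Sp1 letters, against 1.55% for CRE, 20.4% for NFAT, 7.02% for STAT and 4.92% for HIF. A match describes letters in these windows and was not tested as a binding site.

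The single Dusp2 probe set read 109 and 75.5 on the Pac1-/- arrays and 167 and 90.7 on the wild-type arrays, and the genotypes overlapped; where its probes lie relative to the deleted part was not stated, so it does not check the labels. Of 10 mast cell markers, 9 had a brightest probe set at or above an intensity of 100 on all 4 arrays, the exception being the IgE receptor beta chain Ms4a2. None of 8 measured lymphocyte and NK cell markers reached 100 on any array, and their summed intensity was 139.3 and 158.9 on the Pac1-/- arrays and 135.2 and 181.3 on the wild-type arrays. The macrophage list of 9 genes summed to 6116 and 620 on Pac1-/- replicates 1 and 2 and to 7982 and 609 on wild-type replicates 1 and 2, most of it from Cd68 on the replicate 1 arrays. Of those 9 genes 5, Csf1r not among them, reached 100 on no array. Adgre1 read 222 and 217 on the Pac1-/- arrays and 248 and 250 on the wild-type arrays. Lyz2 read 122 and 136 on the Pac1-/- arrays and 73.3 and 56.75 on the wild-type arrays. The 6 measured neutrophil markers summed to 151.5 and 393 on the Pac1-/- arrays and to 173 and 175 on the wild-type arrays. Of these 6, 5 reached 100 on no array. The control for beta-actin had a 3′ over 5′ intensity ratio of 293 and 54.8 on Pac1-/- replicates 1 and 2, against 109 and 1.58 on wild-type replicates 1 and 2, and the GAPDH ratio was 191 on Pac1-/- replicate 2 and between 0.798 and 1.36 on the other arrays. In a bulk sample, fewer cells of a type and less RNA per cell cannot be told apart.

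An intensity of 100, the minimum in the series' design text, was used as the level for detection after quantile normalisation of the arrays. At that level 4 of the 15 probe sets were detected on each Pac1-/- array, and 6 and 7 on wild-type replicates 1 and 2. At a level of 200 there were 3 and 4 on Pac1-/- replicates 1 and 2 and 3 and 2 on the wild-type arrays. The order thus turned in replicate 2 only, and the replicate 1 arrays were equal. The level of 100 was reached by 31.9% of all probe sets on every array, a share that quantile normalisation makes equal. On the deposited values that share was 33.0% and 27.75% on Pac1-/- replicates 1 and 2, and 33.9% and 33.6% on wild-type replicates 1 and 2. Pac1-/- replicate 2 was thus the dimmest array before normalisation. The member counts on the deposited values were 5 and 4 on the Pac1-/- arrays and 6 and 8 on the wild-type arrays. On all 4 arrays that level of 100 was reached by 3 of the 15 probe sets, 1 each of Csf1, Lif and Vegfa, and 6 reached it on no array. Those 6 belonged to Tnfsf9, Tnfsf11, Lta, Ltb and the second Lif probe set, so none of the 4 TNF superfamily ligands was detected on any array.

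**Figure D1:**
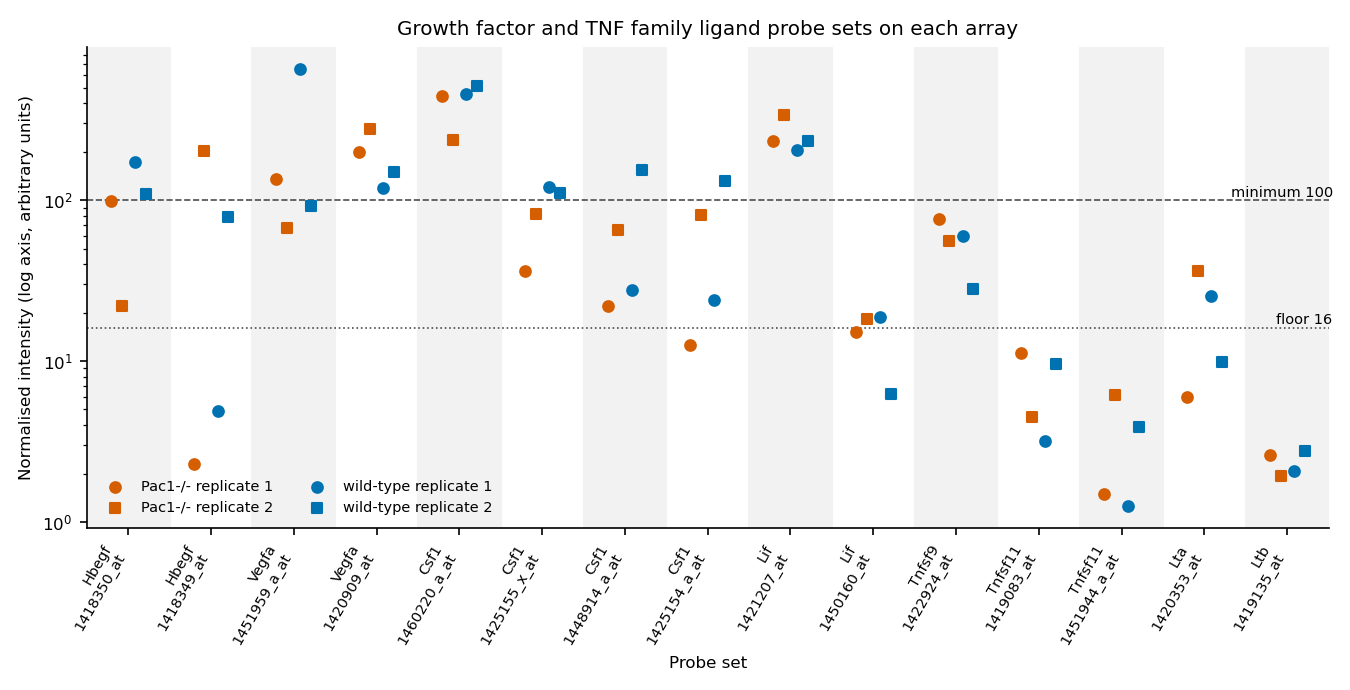
Normalised intensity (log axis, arbitrary units) of the 15 probe sets on the 2 Pac1-/- arrays (orange, left) and the 2 wild-type arrays (blue, right), with circles for replicate 1 and squares for replicate 2. One probe set each of Vegfa, Csf1 and Lif lies above the dashed minimum of 100 on all 4 arrays, while both Tnfsf11 probe sets and Ltb lie below the dotted floor of 16 throughout.

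Of the 15 probe sets, 5 averaged 100 or more and entered the test of Pac1-/- against wild-type cells, which used limma on log2 intensity over 7770 probe sets. They were 1 of the Hbegf probe sets, both of Vegfa, 1 of Csf1 and 1 of Lif. None passed: 0 of the 5 had a limma adjusted p under 0.05, where 0% of all tested probe sets did, and 0 had an unadjusted p under 0.05, where 3.38% of all did. The lowest adjusted p was 0.866. In 3 of the 5 probe sets the 2 genotypes did not overlap, against a background of 37.7%. With 5 probe sets of 4 genes these counts describe the members and support no statement about them as a group.

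Hbegf, the heparin-binding ligand of the EGF receptor, had 2 probe sets that behaved differently. Probe set 1418350_at had intensities of 99.2 and 22 on the Pac1-/- arrays (replicates 1 and 2), against 172 and 110 on the wild-type arrays. Both Pac1-/- arrays were below both wild-type arrays, with log2 differences of -0.80 within replicate 1 and -2.32 within replicate 2. Taken as Pac1-/- minus wild-type, the log2 difference came to -1.56 ± 0.90 (SE, n = 2 each, limma adjusted p = 0.866), with a 95% confidence interval of -4.14 to 1.02. With a floor of 64 this difference was -0.79, so its sign was kept but its size depends on the floor. The reading of 22 on Pac1-/- replicate 2 lies below that higher floor. This probe set averaged 100.8 and passed the minimum only through the wild-type arrays. Leaving out Pac1-/- replicate 2 moved the difference to -0.47, the value closest to 0 among the 4 single-array omissions, and leaving out Pac1-/- replicate 1 moved it to -2.65.

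Pecam1, an endothelial gene of the stromal marker list that other blood cells also express, was lowest on Pac1-/- replicate 2 too, at 456 and 59.4 on the Pac1-/- arrays against 601 and 706 on the wild-type arrays. The whole list of 8 genes summed to 548 and 247 on the Pac1-/- arrays and to 787 and 858 on the wild-type arrays. The other 7 genes reached 100 on no array. Without Pecam1 they summed to 92.9 and 188 on the Pac1-/- arrays and to 186 and 153 on the wild-type arrays, a sum of dim readings. The mast cell marker Tpsb2 was also lowest on Pac1-/- replicate 2 by 1422180_a_at, at 6588 and 476 on the Pac1-/- arrays against 5838 and 7259 on the wild-type arrays. A low reading on that array was thus not particular to Pecam1. Tpsb2 by 1451802_at and Kit by 1452514_a_at were not lowest there. The part of other cells in the Hbegf value was not tested, nor that of the 3′ to 5′ imbalance on Pac1-/- replicate 2.

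The other Hbegf probe set, 1418349_at, read 2.3 and 202 on the Pac1-/- arrays and 4.88 and 78.8 on the wild-type arrays. It was below the floor of 16 on both replicate 1 arrays and far above it on both replicate 2 arrays, so it followed the replicate number and not the genotype. Its mean of 72 left it out of the test, and the groups overlapped. On the Pac1-/- replicate 2 array it was the brightest of its 4 readings, whereas 1418350_at was at its dimmest there.

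Vegfa, the main growth factor for blood vessels, also had 2 probe sets of opposite direction, and both were bright enough to test. Probe set 1420909_at had intensities of 201 and 276 on the Pac1-/- arrays and 118 and 149 on the wild-type arrays. Both Pac1-/- arrays were above both wild-type arrays. Mean log2 intensity (± SD, n = 2 each) was 7.88 ± 0.33 for Pac1-/- arrays and 7.06 ± 0.24 for wild-type arrays. The log2 difference was 0.82 ± 0.40 (SE; 95% confidence interval -0.32 to 1.97; limma adjusted p = 0.866), with 0.76 within replicate 1 and 0.89 within replicate 2. The difference between the genotypes held 80.7% of this probe set's sum of squares, the most of the 5 tested, and leaving out any single array gave values from 0.59 to 1.06.

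Vegfa probe set 1451959_a_at, a type that matches several transcripts of 1 gene, had intensities of 135 and 66.9 on the Pac1-/- arrays against 655 and 91.7 on the wild-type arrays. Only wild-type replicate 1 stood apart, and the groups overlapped because Pac1-/- replicate 1 was above wild-type replicate 2. The mean of 237 that admitted this probe set to the test came mostly from wild-type replicate 1, in the group where it was high. The log2 difference was -1.37 ± 1.16 (SE; 95% confidence interval -4.68 to 1.95; limma adjusted p = 0.873), with -2.28 within replicate 1 and -0.46 within replicate 2. Without wild-type replicate 1 it was 0.051, so its direction rested on that array. Cd68 was also at its highest there, but it followed the replicate number, at 5638 and 121 on the Pac1-/- arrays and 7512 and 118 on the wild-type arrays. On Pac1-/- replicate 1, where Cd68 was high too, 1451959_a_at read 135. The other 8 macrophage genes summed to 478 and 499 on the Pac1-/- arrays and to 470 and 490 on the wild-type arrays. The part of other cells in this Vegfa value was not tested. The replicate number held 57.8% of the sum of squares of 1451959_a_at and the genotype 29.2%. The pair of Vegfa probe sets therefore gave the gene no common direction.

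**Figure D2:**
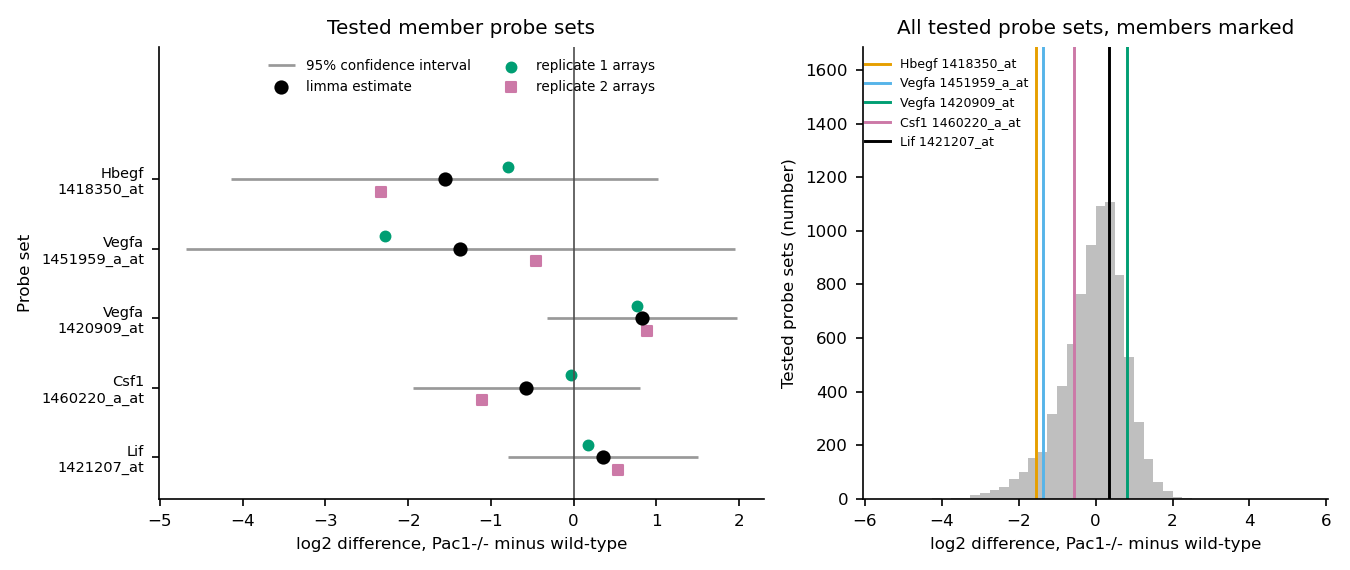
Left, log2 differences (Pac1-/- minus wild-type) of the 5 tested probe sets with 95% confidence intervals, the limma estimate in black and the differences within replicate 1 (green circles) and replicate 2 (pink squares). Right, number of tested probe sets by log2 difference, with the 5 marked by lines; all 5 intervals include 0, and the 2 Vegfa probe sets lie on opposite sides of it.

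Csf1, the growth factor of the macrophage lineage, had 4 probe sets, of which only 1460220_a_at was bright enough to test. After normalisation the Pac1-/- array was below the wild-type array of the same number in all of them. Probe set 1460220_a_at had intensities of 444 and 237 on the Pac1-/- arrays and 454 and 511 on the wild-type arrays. The replicate 1 arrays differed by almost nothing (-0.034 on the log2 scale), and the difference came from Pac1-/- replicate 2 (-1.11). As deposited, the replicate 1 arrays read 445.4 in Pac1-/- and 437.5 in wild-type cells, so the sign within replicate 1 depends on the normalisation. The log2 difference was -0.57 ± 0.48 (SE, n = 2 each, limma adjusted p = 0.872; 95% interval -1.95 to 0.80). Without Pac1-/- replicate 2, the array with the GAPDH ratio of 191, it was -0.12, and the part of that ratio was not tested. With the arrays centred on their medians instead, the difference was 0.058, while the median of all tested probe sets moved to 0.66, so Csf1 stayed below that median by 0.60 log2 units (-0.60).

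The remaining Csf1 probe sets had means between 62.3 and 87.4 and were described only. Probe set 1425155_x_at, of a type that may bind other transcripts too, read 36.2 and 81.8 on the Pac1-/- arrays and 121 and 110 on the wild-type arrays, and the genotypes did not overlap. Probe set 1448914_a_at read 22 and 65.3 on the Pac1-/- arrays against 27.5 and 153 on the wild-type arrays. Probe set 1425154_a_at read 12.7 and 81.3 on the Pac1-/- arrays against 23.8 and 132 on the wild-type arrays. These last probe sets were brighter on the replicate 2 arrays of either genotype, and the replicate number held 83.5% and 93.4% of their sum of squares. As the 4 probe sets share 1 gene and the same 4 arrays, their common sign is not independent evidence. Csf1r, the receptor of Csf1, reached 102 on wild-type replicate 2 only and otherwise read below 100 on every probe set and array.

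Lif, a gp130 cytokine, had 1 probe set detected on all 4 arrays and 1 detected on none. Probe set 1421207_at had intensities of 232 and 340 on the Pac1-/- arrays and 206 and 234 on the wild-type arrays. The values were close on all arrays but Pac1-/- replicate 2, and the genotypes overlapped, since wild-type replicate 2 was slightly above Pac1-/- replicate 1. The log2 difference was 0.35 ± 0.40 (SE, n = 2 each, limma adjusted p = 0.883; 95% interval -0.80 to 1.51), with 0.17 within replicate 1 and 0.54 within replicate 2. The second probe set, 1450160_at, read 15.2 and 18.4 on the Pac1-/- arrays and 18.8 and 6.2 on the wild-type arrays, all near the floor, where readings have no order.

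Among the 5 tested probe sets, Lif 1421207_at and Vegfa 1420909_at had the most similar profiles over the 4 arrays, with a Euclidean distance of 0.49 between their mean-centred log2 values. Both were highest on Pac1-/- replicate 2 and lowest on wild-type replicate 1. The nearest to Csf1 was also Lif (1.38), and the nearest to Hbegf was Csf1 (1.46). The largest distance, 3.30, was the one between the Vegfa probe sets, so these were less alike than any pair from different genes among the 5. With 4 arrays these distances are a description of the arrays.

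Of the TNF superfamily ligands, Tnfsf9, which stimulates T cells through 4-1BB, read 76.5 and 55.7 on the Pac1-/- arrays and 59.6 and 28.1 on the wild-type arrays. Within each replicate number the Pac1-/- array was the higher one, by 0.36 and 0.99 log2 units, but the groups overlapped and the probe set was below the minimum. As deposited, Tnfsf9 read 81.5 and 35.4 on the Pac1-/- arrays and 70 and 33.8 on the wild-type arrays. The size of the replicate 2 difference therefore depends on the normalisation. Lta read 5.95 and 36.1 on the Pac1-/- arrays and 25.5 and 9.8 on the wild-type arrays, with the order of the genotypes turned round between the replicate numbers.

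Tnfsf11, the ligand that drives osteoclast formation, stayed at the floor by both of its probe sets. Probe set 1419083_at read 11.2 and 4.5 on the Pac1-/- arrays and 3.18 and 9.53 on the wild-type arrays, and 1451944_a_at read 1.5 and 6.15 against 1.25 and 3.88. Ltb, which anchors lymphotoxin at the cell surface, read 2.63 and 1.93 on the Pac1-/- arrays and 2.08 and 2.78 on the wild-type arrays. These readings bound the signal of the probe sets and do not show that the transcripts were absent.

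Over the 5 tested probe sets 3 were lower and 2 higher in Pac1-/- cells, where 47.1% of all tested probe sets were lower and 52.9% higher, and with median centring 2 were lower and 3 higher. Their median log2 difference was -0.57, beside 0.056 over all tested probe sets, and it was -0.034 within replicate 1 and -0.46 within replicate 2, beside 0.0081 and 0.13 over all. The median standard error of the 5 was 0.48 log2 units. Both pairs had the same sign in all 5 probe sets, against a background of 61.3%. For Csf1 1460220_a_at this held only after normalisation, since the deposited replicate 1 values were 445.4 in Pac1-/- and 437.5 in wild-type cells. The median is that of probe sets that passed a minimum partly through their wild-type readings. It was 0.051 without wild-type replicate 1, beside 0.087 over all tested probe sets. With median centring it was 0.058, beside 0.66 over all.

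**Figure D3:**
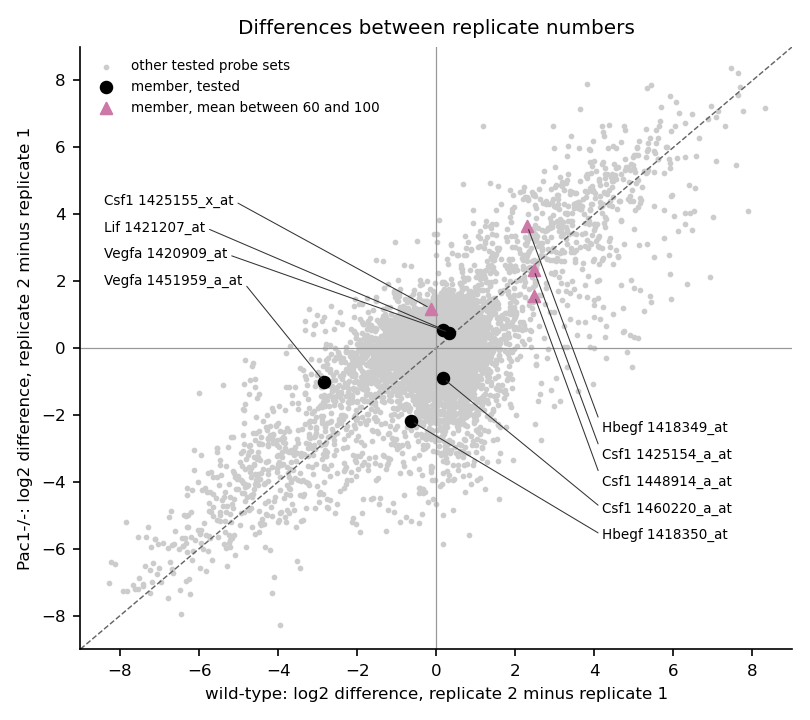
Log2 difference between replicates 2 and 1 within Pac1-/- cells (vertical axis) and within wild-type cells (horizontal axis) for all tested probe sets (grey), the 5 tested members (black circles) and the members with a mean between 60 and 100 (pink triangles), with the dashed line marking equal differences. Hbegf 1418349_at, Csf1 1425154_a_at and Csf1 1448914_a_at lie at the upper right, above 1.5 log2 units in both genotypes, while Lif 1421207_at and Vegfa 1420909_at lie near the origin.

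The replicate numbers separated some of these probe sets more than the genotypes did. Replicate 2 minus replicate 1 was 3.66 log2 units in Pac1-/- and 2.30 in wild-type cells for Hbegf 1418349_at, a size that depends on the floor. It was 2.34 and 2.47 for Csf1 1425154_a_at and 1.57 and 2.48 for Csf1 1448914_a_at, again in Pac1-/- and wild-type cells. In Vegfa 1451959_a_at the replicate 2 array was lower in both genotypes, at -1.01 and -2.84. Among the 5 tested probe sets only that one had over 50% of its sum of squares between the replicate numbers, a share of 20% beside 37.3% of all tested probe sets. What a shared number stands for was not stated in the labels.

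The related ligands, receptors and processing enzymes were taken from 10 lists of 67 genes, of which 57 had a probe set and 20 had 1 or more that were tested. Of their 27 tested probe sets 7 were higher and 20 lower in Pac1-/- cells (median log2 difference -0.52, beside 0.056 over all), but with median centring 15 were higher and 12 lower (0.11, beside 0.66 over all). None passed the adjusted test (0 of 27), and at the unadjusted level 1 was higher and 3 were lower, beside 2.25% and 1.13% of all tested probe sets. All 3 lower ones read below 100 on both Pac1-/- arrays and entered the test only through their wild-type readings, so that count supports nothing. Adam17, the main protease that releases EGF family ligands and TNF, read 376 and 361 on the Pac1-/- arrays and 154 and 166 on the wild-type arrays by 1421858_at (1.20 ± 0.34 log2 units, SE; limma adjusted p = 0.866). Its second tested probe set, 1421859_at, was at -1.64 ± 1.17, with -0.0033 within replicate 1 and -3.27 within replicate 2, so its sign rested on Pac1-/- replicate 2, the array with the GAPDH ratio of 191. Adam10, another such protease, read 47.2 and 28.8 on the Pac1-/- arrays and 230 and 252 on the wild-type arrays by 1450104_at (-2.71 ± 0.43). It was also lower by 1450105_at (-1.63 ± 0.78) and was higher by 1428103_at (0.60 ± 0.65). Timp3, an inhibitor of ADAM proteases, read 86.6 and 35.3 on the Pac1-/- arrays and 222 and 186 on the wild-type arrays by 1419089_at (-1.88 ± 0.59). Its other tested probe sets were at -1.29 ± 0.71 (1419088_at) and -0.39 ± 0.89 (1449335_at). The TNF superfamily ligand Tnfsf14 read 63.1 and 2.63 on the Pac1-/- arrays and 172 and 311 on the wild-type arrays by 1421588_at (-2.86 ± 0.86, a size that depends on the floor), and it was at 0.27 ± 0.54 by 1450298_at. Each of these values has a limma adjusted p of 0.866 or above.

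The lists of closest relatives had few tested members. Of the other VEGF family ligands only Vegfc was tested, at 466 and 317.5 on the Pac1-/- arrays against 233 and 114 on the wild-type arrays (1.24 ± 0.55, SE; limma adjusted p = 0.866). Of the other EGF family ligands Tgfa and Epgn were tested, and Epgn had the lower p (-0.52 ± 1.81). Egfr stood at -0.38 ± 0.43, Il34, the second ligand of Csf1r, at -0.74 ± 2.00, and Il6 at -0.54 ± 2.11. Of the receptors for TNF superfamily ligands, 3 of 4 tested probe sets were lower, and the one that was higher, of the TNF and lymphotoxin receptor Tnfrsf1b, had the lowest p (0.79 ± 0.35, SE; limma adjusted p = 0.866). No probe set of the VEGF receptors or of the receptors of the IL-6 family reached the minimum.

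**Figure D4:**
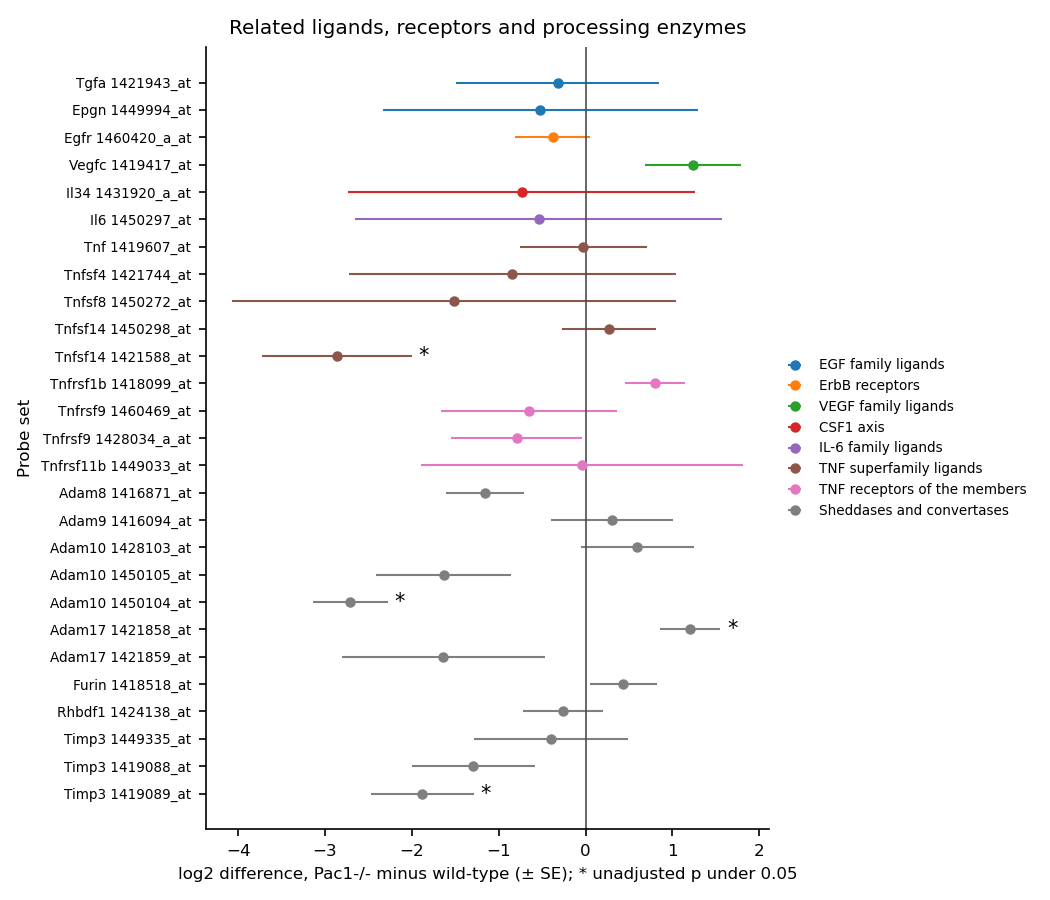
Log2 differences (Pac1-/- minus wild-type, horizontal axis) with standard errors for the 27 tested probe sets of related ligands, receptors and processing enzymes, coloured by list. Stars mark the 4 probe sets with an unadjusted p under 0.05, and none passed after adjustment; Adam10, Adam17 and Tnfsf14 each have probe sets on both sides of 0.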

How the data were processed

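Total RNA of 4 mast cell cultures, 2 Pac1-/- and 2 wild-type, was measured on 1 array each. Biotinylated cRNA was made from 500 to 1000 ng of RNA with a poly(T) primer, and more than 98% of cells were positive for Kit and FceRI, per the labels' protocols. The deposited values are linear intensity; the submitters' processing notes name MAS5. The trimmed mean (2% at either end) was between 150.06 and 150.08 on each array, so the arrays had been scaled; the series' design text describes RMA values, not used here.

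Of 22690 probe sets 64 controls were left out. In the platform annotation 20380 of the others had 1 gene symbol, 691 several and 1555 none, and only those with 1 were named. The arrays were quantile normalised, raised to a floor of 16 and put on the log2 scale, so sizes near the floor are approximate. The 7770 probe sets with a mean of at least 100 were fitted with limma 3.58.1 (lmFit, eBayes, genotype only, two-sided, Benjamini-Hochberg threshold 0.05; 2 residual and 1.7 prior degrees of freedom) in R 4.3.3, after a test on simulated data. Values within a replicate number are differences of 2 arrays, with no test. For marker sums the brightest probe set per gene was used, and the sums without Pecam1 or Cd68 were added after the values were seen; levels of different probe sets were otherwise not compared. Figures used matplotlib 3.10.9.

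All probe sets of the members are named, with those of the 10 related lists that were past the unadjusted test or had the lowest p of their list. Other probe sets of genes so named, Tgfa, Csf1r, Ms4a2, Cd68, Adgre1, Lyz2, Pecam1, Tpsb2 and Kit were named after their values were seen. The members and lists were chosen with earlier results of these data known. The alternatives were the deposited values, median centring, no minimum, a minimum of 200, the minimum after adjustment, a floor of 64, an eBayes trend, the replicate number as a block, each array left out, and a detection level of 200.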

Additional observations from a re-analysis of the deposited data

How the results depend on the processing

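The 5 tested members were refitted under 12 alternatives, which gave 58 differences, 0 of them with a limma adjusted p under 0.05. Of these 56 kept the sign reported and 2 did not: Csf1 1460220_a_at with each array centred on its median (0.058) and Vegfa 1451959_a_at with 1 wild-type array left out. With single arrays left out the ranges were -2.65 to -0.47 for Hbegf 1418350_at, -2.79 to 0.051 for Vegfa 1451959_a_at, 0.59 to 1.06 for Vegfa 1420909_at, -1.02 to -0.12 for Csf1 1460220_a_at and 0.079 to 0.63 for Lif 1421207_at. The members' median was 0.058 with median centring, beside 0.66 over all tested probe sets. It was 0 with no minimum, and between -1.02 and 0.051 with an array left out. With no minimum 5 member probe sets were higher and 7 lower, with a minimum of 200 only 1 was higher, and with an array left out 2 to 3 were higher and 2 to 3 lower.

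No alternative gave a probe set with an adjusted p under 0.05. The count at an unadjusted p under 0.05 was 263, and it was 1762 with no minimum, 110 with a minimum of 200, 666 with the minimum applied after the adjustment, 899 with the replicate number as a block and 79 to 408 with an array left out. The higher share of these calls was 66.5%, but 54.2% on the deposited values, 91.4% with median centring, 36.5% with the replicate block and 11.8% to 53.0% with an array left out. The labels do not say what a number shares. Deviations of same-numbered arrays from their genotype mean correlated at r = 0.751 over the tested probe sets, with only 1 such value from 2 pairs, and with the block 0 of the 5 members had an adjusted p under 0.05 but 2 had an unadjusted p under 0.05, Hbegf 1418350_at (limma p = 0.0232, adjusted 0.377) and Vegfa 1451959_a_at (limma p = 0.0476, adjusted 0.43), where 11.6% of all did. At a detection level of 200 the Pac1-/- arrays had 3 and 4 detected member probe sets and the wild-type arrays 3 and 2. This turns the order seen at 100 in replicate 2 only, with the replicate 1 arrays equal. Dim signal limits the TNF superfamily ligands in particular. The causes of these changes were not tested.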
